A study of Mus musculus with 7 samples.

Results

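The VPS10-domain receptors are a family of 5 genes in the mouse, Sorl1, Sort1, Sorcs1, Sorcs2 and Sorcs3, and all 5 were taken by name. They were 5 of 52230 genes with a transcript in the deposited tables, and all 5 passed the filter on low counts that left 19233 genes to be tested. The family was chosen with earlier results of these libraries known, among them the level of Sorl1, so the difference of Sorl1 between the genotypes is described here and not tested. The other 4 receptors, their partners and the genes beside Sorl1 were tested within a fit of all genes. The lists of partners were also chosen with earlier results of these libraries known, so their counts and p-values are a description.

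RNA was sequenced from ovarian stroma, the tissue left after ovaries had been punctured to release the granulosa cells. The mice were immature females of the PRKO strain (Pgrtm1Bwo), 21 to 27 days of age in the sample labels, and the wildtype (WT) mice, PGR +/+, were littermates of the knockouts (KO), PGR -/-. All animals received 5 IU PMSG (eCG) and, after 44 h, 5 IU hCG, and the tissue was collected 8 h post-hCG. There were 4 WT libraries, numbered 1 to 4, and 3 KO libraries, numbered 2 to 4, each made from tissue pooled over 3 mice, so p-values measure the spread between pools. The knockout is global and not limited to a cell type, and the stroma is a mixture of theca, fibroblast, vascular, blood and residual follicle cells. In such bulk tissue fewer cells of a type and less RNA per cell cannot be told apart.

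The receptors are type I membrane proteins that carry cargo between the trans-Golgi network, the cell surface and endosomes. Each is made as a precursor whose propeptide is removed by furin-like proteases, binds ligands through the VPS10 domain, and is returned from endosomes by retromer or taken up through clathrin adaptors that read its cytoplasmic tail. SORLA, the product of Sorl1, also carries LDL receptor-type repeats, and is known for sorting the amyloid precursor protein and lipoprotein lipase. Sortilin, the product of Sort1, sorts progranulin, prosaposin and neurotensin, and the SorCS proteins are best known from neurons. In the ovary these receptors are less well described than in brain, liver and fat.

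Sequencing depth was 47.4 to 63.4 M reads per library. The targeted gene, Pgr, was read first as a check of the labels. Its level is given in CPM (read counts scaled to library size). In order of replicate number it was 19.5, 31.0, 21.5 and 16.9 in the WT libraries, and 6.13, 6.52 and 7.56 in the KO libraries. The genotypes did not overlap, and the log2 fold change was -1.72 (SE 0.202, adjusted p = 0.0544 by edgeR's quasi-likelihood test with Benjamini–Hochberg adjustment). Summed markers of the mixed tissue are given as ranges in TPM, Salmon's level per transcript length. Smooth muscle and pericyte markers summed to 1490 to 1770 TPM in WT and 1090 to 1440 TPM in KO, and 5 of 7 were lower at an unadjusted p under 0.05 by edgeR. Over all genes tested, 5.1% were lower and 3.84% higher in KO at that p, and the counts of the lists below stand beside these shares. Theca markers summed to 8190 to 11000 TPM and 7300 to 8980 TPM, with 2 of 6 lower. Stromal fibroblast markers summed to 3000 to 4070 and 3170 to 3520 TPM, with 1 of 8 lower. Endothelial markers summed to 514 to 603 and 537 to 583 TPM, with 2 of 8 lower, and surface epithelium markers to 20.0 to 40.6 and 17.3 to 25.5 TPM, with 2 of 8 lower. Leukocyte markers summed to 128 to 149 and 116 to 161 TPM, granulosa markers to 732 to 1040 and 836 to 1320 TPM, and red blood cell markers to 1150 to 1470 and 1220 to 2190 TPM, with none under that p in these lists. Oocyte markers summed to 235 to 332 and 301 to 420 TPM, with 3 of 8 higher. Nerve and glia markers summed to 22.0 to 28.9 and 28.2 to 38.5 TPM, with 2 of 5 tested higher. The part of these cell types in the receptor values was not tested.

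Sorl1 lies on chromosome 9 (GRCm39, chr9:41876012-42035656, minus strand) and encodes SORLA. It had 1035, 1114, 1354 and 1654 estimated reads in WT replicates 1 to 4, and 2849, 2259 and 2785 in KO replicates 2 to 4. After scaling by TMM, the trimmed mean normalization of edgeR, its level was 19.9, 22.1, 24.0 and 26.6 CPM in the WT libraries. In the KO libraries it was 49.5, 47.1 and 48.0 CPM. The lowest KO library stood well above the highest WT library. The mean was 23.2 ± 2.84 CPM in WT (SD, n = 4) and 48.2 ± 1.22 CPM in KO (SD, n = 3), a ratio of 2.08 and a log2 fold change of 1.06 (SE 0.0912). Over all genes tested, the median log2 fold change was -0.001 and the median of its size was 0.097. All KO libraries lay above all WT libraries for 3.93% of genes, and 0.0104% of genes (2 of 19233) had an adjusted p of at most 0.05 with a log2 fold change of at least 0.5 in size. Both shares rest on the contrast for which Sorl1 was picked, and nothing is read from them about Sorl1.

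**Figure D1:**
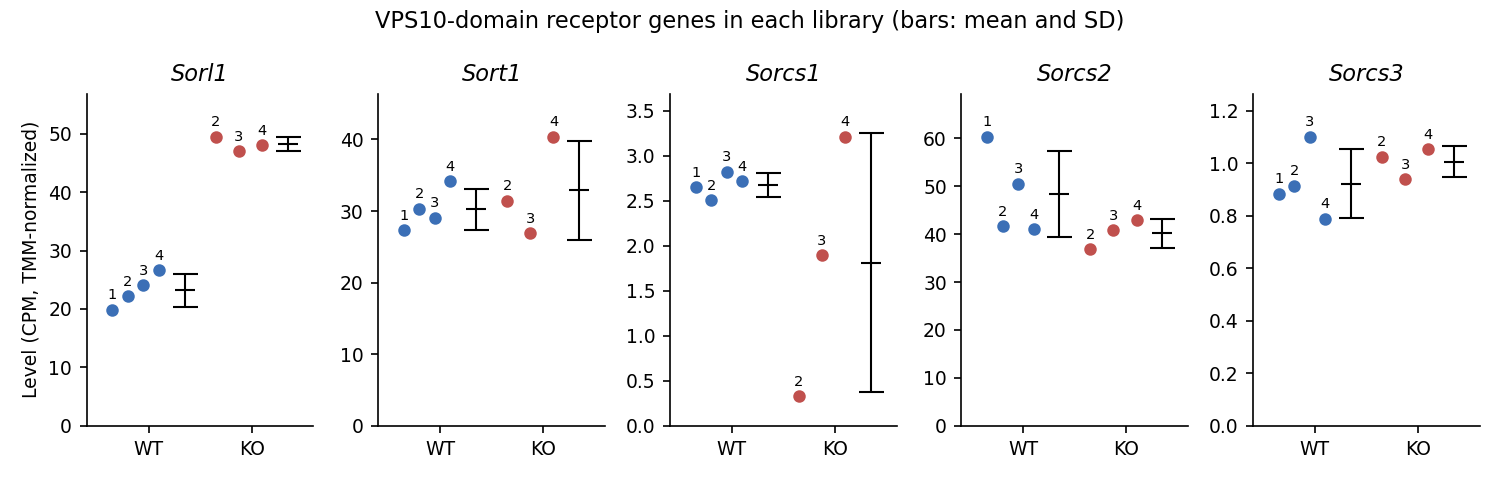
CPM of the 5 receptor genes in each library (points, with the replicate number), with the mean (short line) and SD (bars) of 4 WT and 3 KO libraries on axes that start at 0. For Sorl1 the KO libraries sit between 47.1 and 49.5 CPM, above the WT range of 19.9 to 26.6 CPM, and for the other 4 genes the ranges of the genotypes overlap.

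The libraries of each genotype were close in Sorl1 level. In CPM the SD was smaller in KO than in WT, and in TPM it was slightly larger. Per length, Sorl1 was at 2.85, 3.64, 3.45 and 3.83 TPM in WT and at 7.25, 6.76 and 7.67 TPM in KO. The means were 3.44 ± 0.422 TPM (SD, n = 4) and 7.23 ± 0.456 TPM (SD, n = 3). The genotypes did not overlap in TPM either. With any one library left out, the log2 fold change lay between 0.999 and 1.14.

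Of 4 annotated Sorl1 transcripts in the tables, 2 held reads. Sorl1-201, the coding transcript of 10715 bases, held 1028, 1104, 1352 and 1653 reads in WT and 2839, 2256 and 2775 reads in KO. It made up 99.6% ± 0.395 of Sorl1 reads in WT (SD, n = 4) and 99.7% ± 0.131 in KO (SD, n = 3). The gene-level values are therefore almost entirely those of this transcript. Sorl1-202, a retained-intron transcript of 769 bases, held 1.23 to 9.45 reads in WT and 2.85 to 9.97 in KO, and these ranges overlapped. Because it is short, those few reads were 6.88% ± 6.25 of Sorl1 TPM in WT (SD, n = 4) and 4.80% ± 2.21 in KO (SD, n = 3). Sorl1-203 and Sorl1-204 had no reads in any library.

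**Figure D2:**
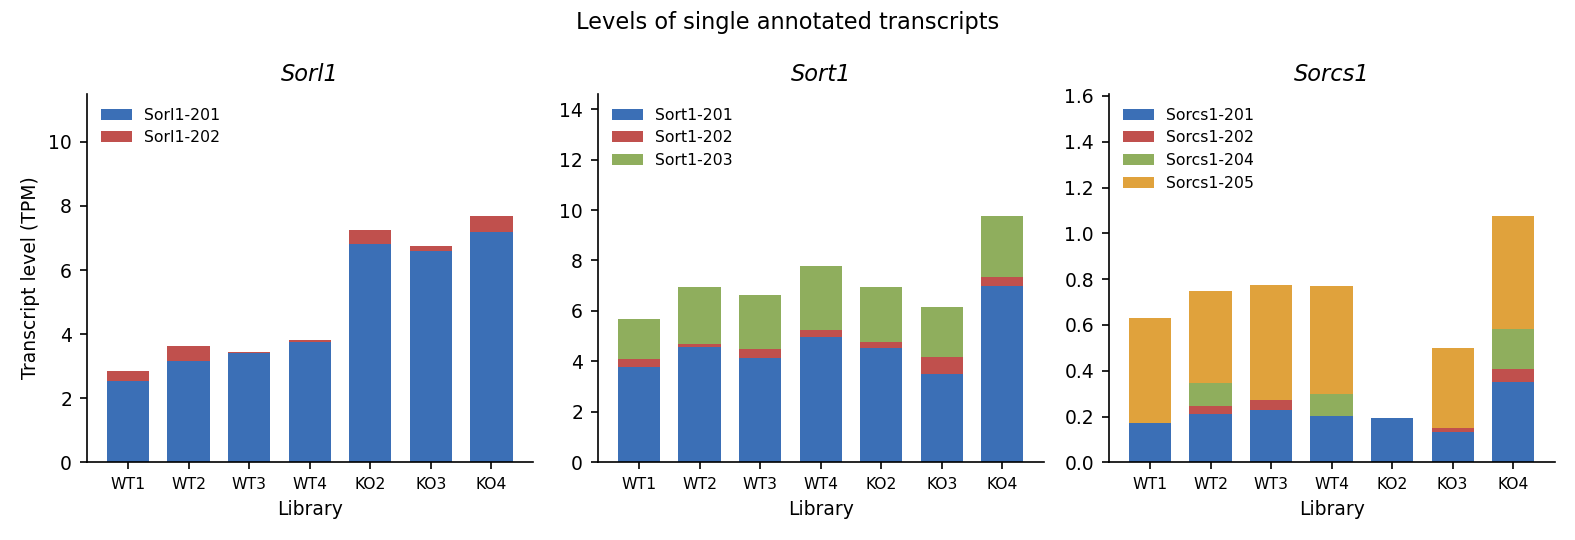
TPM of single annotated transcripts of Sorl1, Sort1 and Sorcs1, stacked for each library, with transcripts that have no reads left out. Sorl1-201 fills 86.5% to 98.6% of each Sorl1 bar, and the Sorcs1 bar of KO replicate 2 holds Sorcs1-201 and no Sorcs1-205.

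The 250 bases upstream of the annotated 5′ end of Sorl1 are shown as the nearest sequence outside the gene (GRCm39, chr9:42035657-42035906, minus strand, printed 5′ to 3′ along the gene). The annotated start of Sorl1-201, at position 42035621, lies a short way inside the gene, so the window does not adjoin that transcript. The capitals mark the letters GGGCGG, the core of a GC box.
Sorl1 upstream: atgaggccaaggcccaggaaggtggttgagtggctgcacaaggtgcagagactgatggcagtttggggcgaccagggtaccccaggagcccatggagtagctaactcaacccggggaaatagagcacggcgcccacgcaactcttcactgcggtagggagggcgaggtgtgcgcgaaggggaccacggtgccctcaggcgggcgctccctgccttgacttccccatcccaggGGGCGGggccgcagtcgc
The window was searched on both strands for 4 short motifs. GGGCGG was found 1 time, starting 18 bases before the gene's 5′ end, and 29.9% of 21770 protein-coding genes held it in a window of the same length. AGAACA, the half-site bound by the progesterone receptor and related steroid receptors, was not among the letters of the window, and 15.5% of windows held it. ACANNNTGT, the core of the palindromic form, was also not there, against 5.8% of windows, and a match to it can overlap a match to the half-site. CACGTG, an E-box, was not there either, against 5.7% of windows. These counts describe letters in a short window and say nothing of binding by any factor.

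Sort1 (chr3:108191285-108268842, plus strand) encodes sortilin. Its level was 27.3, 30.3, 29.1 and 34.1 CPM in WT and 31.4, 26.9 and 40.4 CPM in KO. The genotypes overlapped, since KO replicate 3 was below every WT library and KO replicate 4 above. The log2 fold change was 0.12 (SE 0.132, 95% interval -0.18 to 0.42), with an adjusted p of 0.834 by edgeR's quasi-likelihood test with Benjamini–Hochberg adjustment. A two-sided exact permutation test of log2 CPM gave p = 0.571, where the smallest p that 35 splits of 4 against 3 libraries allow is 0.0571. Without KO replicate 4 the log2 fold change was -0.05.

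Both full coding transcripts of Sort1 were present, and in the annotation used here (GRCm39, GENCODE M39) they differ by a cassette exon of 99 bases, or 33 codons in frame. In the deposited tables, made with an earlier release, Sort1-201 has 6796 and Sort1-203 has 6836 bases, so there the exon was not their whole difference. The exon is shown because it separates the full coding transcripts in the annotation used here. Whether Salmon told the transcripts apart by this exon was not looked at. It lies at chr3:108262788-108262886 on the plus strand and is part of Sort1-203 but not of Sort1-201. None of its letters is set in capitals, since the exon is shown whole.
Sort1 cassette exon: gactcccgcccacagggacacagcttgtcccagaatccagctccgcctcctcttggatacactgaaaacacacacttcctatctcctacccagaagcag
The share of Sort1-203 in the TPM of both transcripts was 29.2%, 32.9%, 34.4% and 33.6% in WT and 32.6%, 36.3% and 25.6% in KO. The lowest and the highest share were both in KO libraries. The means were 32.5% ± 2.27 (SD, n = 4) and 31.5% ± 5.44 (SD, n = 3), and the genotypes overlapped. The shares are Salmon's division of reads between near-identical transcripts of that earlier release and carry its error. The third transcript, Sort1-202, retains an intron and made up 4.08% ± 1.90 of Sort1 TPM in WT and 5.82% ± 4.31 in KO.

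Sorcs2 (chr5:36174509-36555545, minus strand) encodes a receptor best known for binding proneurotrophins. Its level was 60.3, 41.7, 50.6 and 41.0 CPM in WT and 36.8, 40.8 and 42.9 CPM in KO. KO replicates 2 and 3 were below every WT library, and KO replicate 4 was within the WT range. The log2 fold change was -0.27 (SE 0.133, 95% interval -0.57 to 0.03), with an adjusted p of 0.596 by edgeR's quasi-likelihood test with Benjamini–Hochberg adjustment and p = 0.229 by the exact permutation test. Without WT replicate 1, the highest library, the estimate was the smallest of those that leave out 1 library, at -0.14. Sorcs2-201 held 98.8% ± 0.286 of the gene's reads in WT (SD, n = 4) and 98.3% ± 0.128 in KO (SD, n = 3). The shorter coding transcript Sorcs2-202 held 26.7 to 33.5 reads in WT and 35.4 to 37.6 reads in KO, before any scaling for depth. Scaled for depth and length, it was at 0.366 to 0.482 TPM in WT and 0.501 to 0.576 TPM in KO. The ranges were separate, with KO higher, at few reads, and the difference was not tested. Among all genes tested, 9.05% had separate ranges in CPM.

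Sorcs1 (chr19:50131737-50667093, minus strand) encodes a receptor known from insulin-secreting cells and neurons. It was low, with 138, 126, 159 and 169 reads in WT and 19, 91 and 186 reads in KO. The WT libraries were close together at 2.65, 2.50, 2.82 and 2.72 CPM. The KO libraries were at 0.330, 1.90 and 3.21 CPM, so that KO replicate 2 stood below and KO replicate 4 above every WT library. The log2 fold change was -0.56 (SE 0.525, 95% interval -1.75 to 0.63), with an adjusted p of 0.805 by edgeR's quasi-likelihood test with Benjamini–Hochberg adjustment and p = 0.286 by the exact permutation test. Single KO libraries set this value, since it was -0.06 without KO replicate 2 and -1.29 without KO replicate 4. The spread between KO libraries was larger than the difference between the genotype means.

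The low Sorcs1 level of KO replicate 2 came with a different division of the reads over transcripts. Sorcs1-205, the main coding transcript, had 122, 92.6, 131 and 135 reads in WT, and 0, 78.2 and 124 reads in KO replicates 2, 3 and 4. Sorcs1-201, a shorter transcript annotated for nonsense-mediated decay, held 16.1 to 21.1 reads in WT and 18.7, 10.6 and 31.6 reads in KO replicates 2, 3 and 4. Salmon thus assigned no reads of KO replicate 2 to Sorcs1-205, while those it assigned to Sorcs1-201 were within the WT range. This is 1 library with 19 Sorcs1 reads. The values are Salmon's division of few reads between transcripts whose spans overlap, and they carry its error. Sorcs1-204 was listed at 0 in 2 WT and 2 KO libraries and at 11.1, 13.5 and 21.8 reads in WT replicate 2, WT replicate 4 and KO replicate 4. The coding part of the last exon of Sorcs1-205 and of Sorcs1-204 is shown because it encodes the end of the cytoplasmic tail, where the isoforms of this receptor differ. Both lie on the minus strand of GRCm39, at chr19:50139657-50139789 for Sorcs1-205 and at chr19:50141193-50141358 for Sorcs1-204, and no letters are in capitals.
Sorcs1-205 tail end: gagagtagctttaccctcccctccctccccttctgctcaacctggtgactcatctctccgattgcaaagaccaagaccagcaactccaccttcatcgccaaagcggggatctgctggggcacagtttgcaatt
Sorcs1-204 tail end: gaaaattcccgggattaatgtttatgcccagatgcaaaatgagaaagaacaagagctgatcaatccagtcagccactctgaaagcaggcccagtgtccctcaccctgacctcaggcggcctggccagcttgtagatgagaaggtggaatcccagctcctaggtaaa

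Sorcs3 (chr19:48194464-48793944, plus strand), a receptor best known from the hippocampus, had the lowest mean level of the family in both genotypes, though Sorcs1 was lower in KO replicate 2. It had 46, 46, 62 and 49 reads in WT and 59, 45 and 61 reads in KO. These were 0.884, 0.914, 1.10 and 0.788 CPM in WT and 1.03, 0.938 and 1.05 CPM in KO. All KO libraries lay within the WT range. The log2 fold change was 0.13 (SE 0.172, 95% interval -0.26 to 0.52), with an adjusted p of 0.869 by edgeR's quasi-likelihood test with Benjamini–Hochberg adjustment and p = 0.400 by the exact permutation test. At about 50 reads per library a small difference would not be detectable. Sorcs1 and Sorcs3 both lie on chromosome 19, and the spread of Sorcs1 in the KO libraries was not shared by Sorcs3.

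None of the 4 tested receptors had an adjusted p of at most 0.05 by edgeR, DESeq2 or limma-voom. With a log2 fold change of at least 0.5 in size as well, DESeq2 called 0.835% of the 16885 genes to which it gave an adjusted p. By each of these tools 0 of 4 had an unadjusted p under 0.05, against 8.94% of all genes by edgeR. The CPM ranges of the genotypes were separate for none of the 4, against 9.05% of all genes. Whether the difference of Sorl1 differs from those of the other receptors was not tested.

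Per length, the order of the receptors in WT was Sorcs2, Sort1, Sorl1, Sorcs1 and Sorcs3. Their WT levels were 11.4 to 15.0, 5.67 to 7.78, 2.85 to 3.83, 0.632 to 0.775 and 0.216 to 0.312 TPM, and no neighbouring ranges overlapped. In KO the range of Sorl1, 6.76 to 7.67 TPM, lay inside that of Sort1, 6.17 to 9.75 TPM. In terms of means, Sort1 was at 6.76 ± 0.871 TPM in WT (SD, n = 4) and 7.62 ± 1.88 TPM in KO (SD, n = 3), and Sorcs2 at 13.0 ± 1.77 and 11.4 ± 1.32 TPM. Sorcs1 was at 0.731 ± 0.0668 and 0.588 ± 0.447 TPM, and Sorcs3 at 0.250 ± 0.0444 and 0.278 ± 0.0259 TPM.

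The summed level of the family was 24.2 ± 0.782 TPM in WT (SD, n = 4) and 27.1 ± 3.82 TPM in KO (SD, n = 3). Sorl1 made up 11.7%, 15.6%, 13.7% and 16.0% of it in WT and 29.3%, 27.0% and 24.4% in KO. Its share was higher in each KO library than in any WT library, and was 22.0% in WT and 39.0% in KO when CPM was used in place of TPM. Sorcs2 made up 53.7% ± 6.23 in WT and 42.1% ± 2.82 in KO, and Sort1 28.0% and 27.9%. These shares contain the Sorl1 difference itself and are given as a description.

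**Figure D3:**
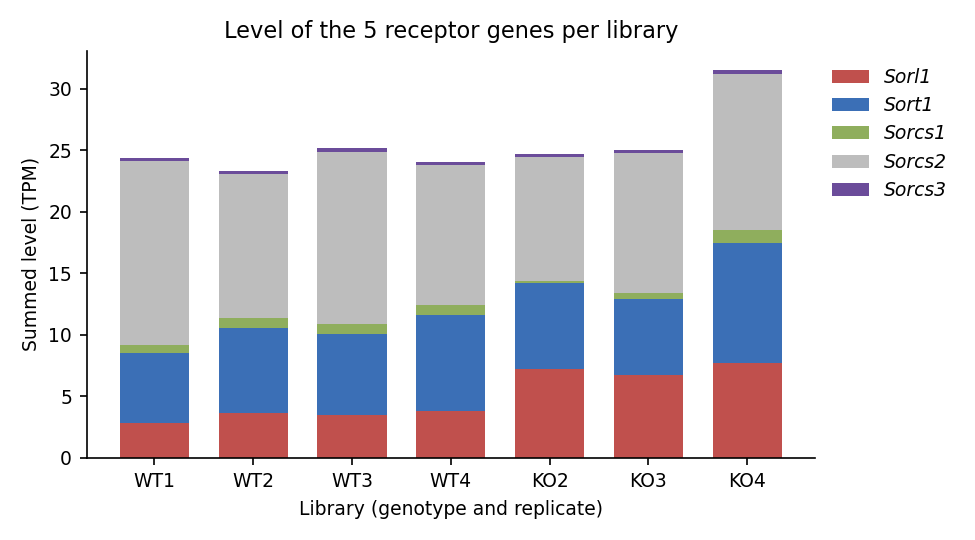
TPM of the 5 receptor genes stacked for each library, on an axis that starts at 0. The Sorl1 segment is 2.85 to 3.83 TPM in the WT bars and 6.76 to 7.67 TPM in the KO bars, and KO replicate 4 has the tallest bar.

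The partners of the receptors were read in 7 lists of 99 genes, of which 95 were tested. By edgeR, 7 of the 95 (7.37%) had an unadjusted p under 0.05, 3 higher and 4 lower in KO, against 8.94% of all genes (3.84% higher and 5.1% lower). None had an adjusted p of at most 0.05 by edgeR or limma-voom, and 1 did by DESeq2. The number with an unadjusted p under 0.05 was 7 by DESeq2 and 8 by limma-voom, for which the share of all genes is not given. The median log2 fold change was -0.01, against -0.001 over all genes. By edgeR, the share of these genes under that p was near that of all genes.

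**Figure D4:**
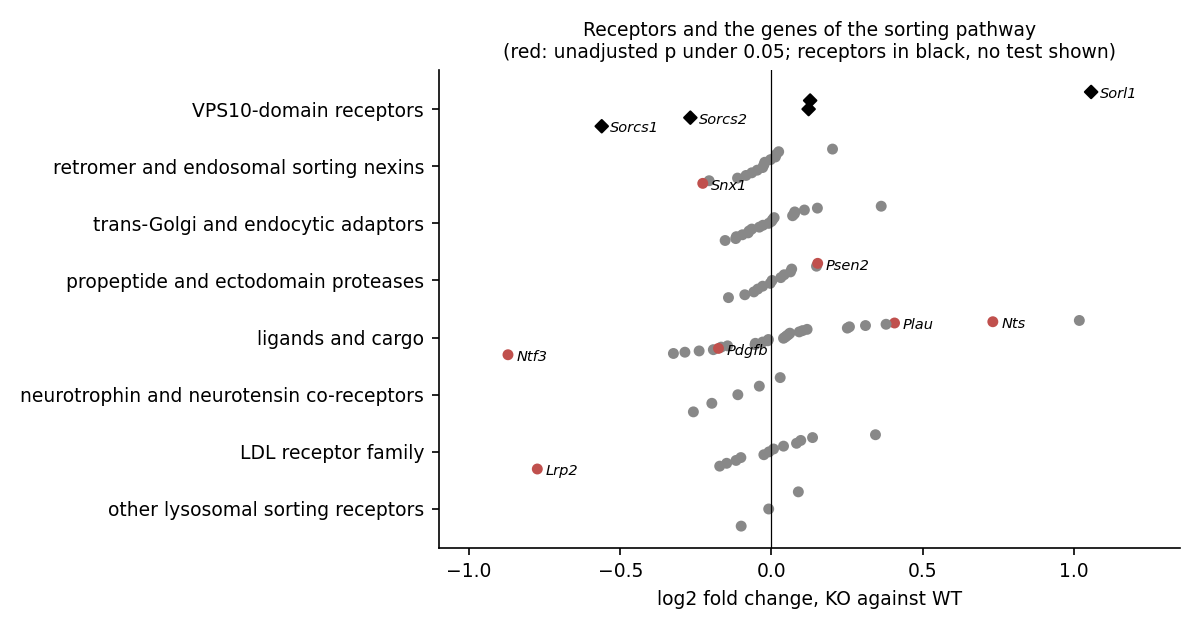
Log2 fold change of KO against WT for the 5 receptors (black diamonds) and the 95 tested genes of the 7 partner lists (circles), with 1 row for each list. Red circles have an unadjusted p under 0.05, and most circles sit close to the line at 0 while Sorl1 lies at 1.06.

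Among ligands and cargo, 28 of 30 were tested, and 2 were higher and 2 lower at an unadjusted p under 0.05, with a median log2 fold change of 0.04. Plau, which encodes the urokinase-type plasminogen activator, was at 808, 751, 735 and 645 CPM in WT and at 1115, 893 and 915 CPM in KO. All KO libraries were above all WT libraries, with a log2 fold change of 0.41 (SE 0.104, adjusted p = 0.314 by edgeR with Benjamini–Hochberg adjustment, 0.0178 by DESeq2). Nts, the precursor of the sortilin ligand neurotensin, was at 20.9, 38.7, 20.7 and 38.2 CPM in WT and at 70.9, 32.5 and 44.1 CPM in KO. KO replicate 3 was within the WT range, and the log2 fold change was 0.73 (SE 0.307, adjusted p = 0.532 by edgeR with Benjamini–Hochberg adjustment). Without KO replicate 2, the highest library, it was 0.37. Ntf3, the neurotrophin NT-3, was low, at 0.467 ± 0.159 CPM in WT (SD, n = 4) and 0.256 ± 0.0862 CPM in KO (SD, n = 3), with a log2 fold change of -0.87 (SE 0.357, adjusted p = 0.522 by edgeR with Benjamini–Hochberg adjustment). Pdgfb, which encodes the PDGF-B growth factor chain, was at 39.1 ± 3.67 and 34.7 ± 0.373 CPM, with a log2 fold change of -0.18 (SE 0.0752, adjusted p = 0.543 by edgeR with Benjamini–Hochberg adjustment). The most abundant cargo genes per length in WT were Psap, encoding prosaposin, at a mean of 993 TPM in WT and 912 TPM in KO, and Apoe, encoding apolipoprotein E, at 542 and 606 TPM. In KO, Plau lay between them at 681 TPM. The log2 fold changes of Psap and Apoe were -0.17 (SE 0.0767) and 0.12 (SE 0.142), and neither had an unadjusted p under 0.05 by edgeR. For Psap all KO libraries were below all WT libraries in CPM. Psap had an unadjusted p under 0.05 by DESeq2 and by limma-voom, but not an adjusted one. The largest log2 fold change of the list was 1.02, that of Il6, a cytokine whose receptor SORLA can bind, named here after its value was seen. Its unadjusted p by edgeR's quasi-likelihood test was 0.0775, and the exact permutation test gave p = 0.343. Apob and Apoa5 were too low to be tested.

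Of 14 retromer and sorting nexin genes, 1 was lower at an unadjusted p under 0.05, and the median log2 fold change was -0.03. It was Snx1, a membrane-bending nexin that works with retromer, at 93.9, 103, 92.7 and 108 CPM in WT and 84.3, 83.2 and 87.3 CPM in KO. The genotypes did not overlap, and the log2 fold change was -0.23 (SE 0.0661, adjusted p = 0.355 by edgeR with Benjamini–Hochberg adjustment). The most abundant members were Snx3, at 187 TPM in both genotypes, and the endosomal GTPase gene Rab7, at 185 TPM in WT and 180 TPM in KO. Of 19 trans-Golgi and endocytic adaptor genes, 0 had an unadjusted p under 0.05 by edgeR, and log2 fold changes ran from -0.15 to 0.36. Ap2m1 and Ap2s1, subunits of the AP-2 clathrin adaptor, led this list at 414 and 194 TPM in WT and at 426 and 201 TPM in KO.

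Of 13 protease genes that mature or shed the receptors, 1 was higher at an unadjusted p under 0.05. Psen2, a catalytic subunit of gamma-secretase, was at 44.3 ± 2.45 CPM in WT (SD, n = 4) and 49.3 ± 1.55 CPM in KO (SD, n = 3), without overlap, and its log2 fold change was 0.15 (SE 0.0591, adjusted p = 0.489 by edgeR with Benjamini–Hochberg adjustment). Psenen, another gamma-secretase subunit, and the proprotein convertase gene Pcsk5 were the most abundant, at 156 and 131 TPM in WT and 167 and 149 TPM in KO, with neither under that p. Of 13 LDL receptor family genes, 1 was lower. Lrp2, which encodes megalin, was low, at 2.02, 2.09, 1.26 and 1.64 CPM in WT and 0.816, 0.875 and 1.36 CPM in KO. KO replicate 4 overlapped WT replicate 3, and the log2 fold change was -0.77 (SE 0.249, adjusted p = 0.395 by edgeR with Benjamini–Hochberg adjustment). Lrp1, an abundant endocytic receptor of this list, was at 286 TPM in WT and 326 TPM in KO.

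Among 7 co-receptors for neurotrophins, neurotensin and GDNF, 5 were tested and 0 had an unadjusted p under 0.05 by edgeR. The neurotrophin receptor genes Ntrk2 and Ntrk3 were the most abundant, at 20.5 and 2.63 TPM in WT and 19.1 and 2.73 TPM in KO, and the neurotensin receptor genes Ntsr1 and Ntsr2 were too low to be tested. Of 3 other lysosomal sorting receptors, 0 had an unadjusted p under 0.05 by edgeR. M6pr, encoding the cation-dependent mannose 6-phosphate receptor, was at 153 TPM in WT and 147 TPM in KO, and Scarb2, which carries beta-glucocerebrosidase, at 75.1 and 77.2 TPM.

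Genes beside Sorl1 were also compared. Pgr lies on the same chromosome, 32.9 Mb away. Within 2 Mb of Sorl1, 35 other genes were tested, and 5 (14.3%) passed an unadjusted p of 0.05 by edgeR, all higher in KO. Of all genes tested, 8.94% passed that p in either direction, 3.84% higher and 5.1% lower, and the counts for other windows below stand beside these shares. None had an adjusted p of at most 0.05 by edgeR as used here or by limma-voom, and 2, Hspa8 and Thy1, did by DESeq2. With legacy=FALSE, a newer dispersion setting of edgeR, or with no filter on low counts, 1 did, 4930546K05Rik. The unadjusted count was 5 by DESeq2 and by limma-voom, for which the share of all genes is not given. The log2 fold change was above 0 in 23 of the 35, with a median of 0.09. Within 1 Mb the count was 2 of 13 (15.4%), and within 5 Mb it was 18 of 140 (12.9%), of which 13 were higher and 5 lower. Each of these counts includes 4930546K05Rik, which passed the filter on low counts only through the KO libraries, where it was higher. With at least 10 counts in every library, 29 genes were tested within 2 Mb, and 4 had an unadjusted p under 0.05 by edgeR. Neighbouring genes are not independent of each other, and no test was made of the window as a whole.

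**Figure D5:**
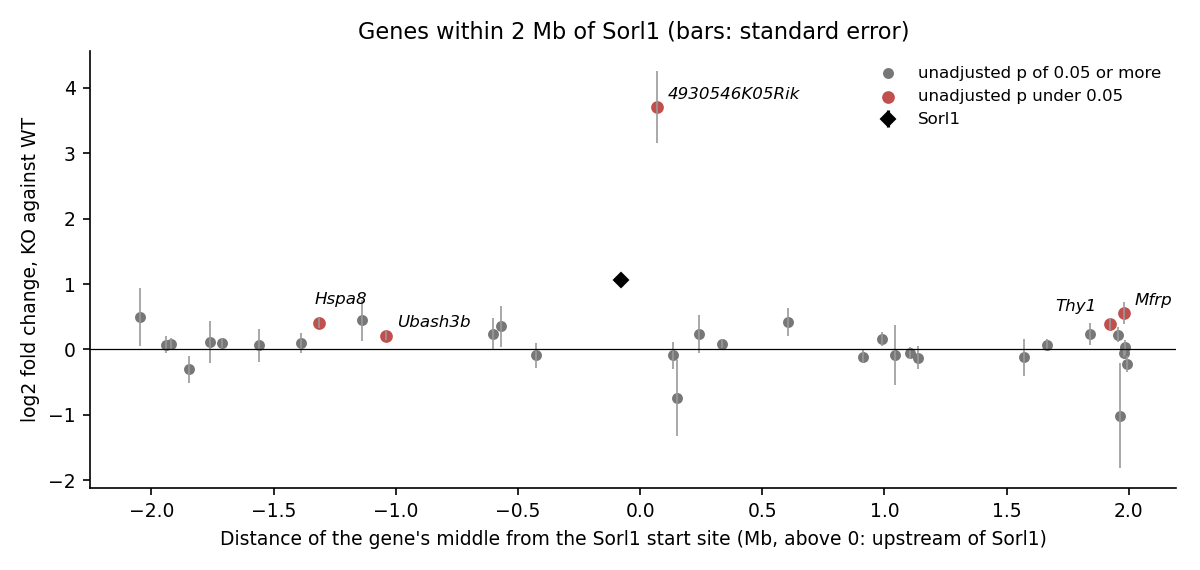
Log2 fold change of KO against WT, with its standard error, of the 35 tested genes within 2 Mb of Sorl1, against the distance of the gene's middle from the Sorl1 start site. Values above 0 on the horizontal axis are upstream of Sorl1, red points have an unadjusted p under 0.05, and Sorl1 is the black diamond at 1.06.

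The nearest upstream gene that could be tested was the long noncoding RNA gene 4930546K05Rik (chr9:42087888-42121000), 52.2 kb upstream on the same strand. It held 2, 1, 1 and 0 reads in the WT libraries and 16, 16 and 11 reads in the KO libraries. Each KO library was above each WT library, though at very low counts. Over 4 WT reads in all and 43 KO reads in all, the ratio of KO to WT per sequenced read was 14.9 (exact 95% interval 5.41 to 57.1, counting error only). The gene passed the filter on low counts only through the KO libraries, where it was higher. The interval and its p-values are therefore given as a description, and no conclusion is drawn from them. Its adjusted p was 0.107 by edgeR with Benjamini–Hochberg adjustment, and ranged from 0.036 with no filter to 0.441 without KO replicate 2. Reads that run on from or belong to other transcripts of this interval were not looked at, since the deposited values are per transcript.

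The next genes upstream were Sc5d, which encodes a sterol desaturase of cholesterol synthesis, and the noncoding Gm36435. Sc5d was at 304, 304, 288 and 537 CPM in WT and 345, 331 and 333 CPM in KO. WT replicate 4 stood far above the other libraries, and the log2 fold change was -0.09 (SE 0.204). Without WT replicate 4 it was 0.18, and the gene then passed an unadjusted p of 0.05 by edgeR but not an adjusted one. Gm36435 was at 0.135, 0.179, 0.177 and 0.563 CPM in WT and 0.174, 0.229 and 0.0863 CPM in KO, again with WT replicate 4 highest, and had a log2 fold change of -0.74 (SE 0.582). Downstream, the noncoding genes Gm35835, Mir100hg and Gm48740 had log2 fold changes of -0.09 (SE 0.196), 0.24 (SE 0.250) and 0.36 (SE 0.316). With all 7 libraries, none of these 5 genes had an unadjusted p under 0.05 by edgeR, and in each the genotypes overlapped.

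The other 4 genes with an unadjusted p under 0.05 were further away. Hspa8, which encodes the constitutive HSC70 chaperone that uncoats clathrin vesicles, was at 1861, 1768, 1811 and 1841 CPM in WT and 2290, 2664 and 2279 CPM in KO. The KO libraries did not overlap the WT libraries, and the log2 fold change was 0.41 (SE 0.0801, adjusted p = 0.190 by edgeR with Benjamini–Hochberg adjustment, 5.75e-05 by DESeq2). Hspa8 has near-identical processed copies in the genome, so its count is uncertain. With offsets for transcript length its log2 fold change was 0.215 (adjusted p = 0.448 by edgeR with Benjamini–Hochberg adjustment), and over all alternatives the adjusted p ranged from 5.75e-05 to 0.540. Thy1, a surface glycoprotein of fibroblasts, lymphocytes and neurons, was at 111, 95.2, 101 and 97.6 CPM in WT and 143, 141 and 114 CPM in KO. Its log2 fold change was 0.39 (SE 0.0895, adjusted p = 0.251 by edgeR with Benjamini–Hochberg adjustment, 0.0126 by DESeq2). Ubash3b, a phosphatase gene, was at 25.8 ± 1.68 CPM in WT (SD, n = 4) and 29.9 ± 2.07 CPM in KO (SD, n = 3), with a log2 fold change of 0.21 (SE 0.0734, adjusted p = 0.428 by edgeR with Benjamini–Hochberg adjustment). Mfrp, a frizzled-related membrane protein gene, was at 1.82 ± 0.334 and 2.67 ± 0.235 CPM, with a log2 fold change of 0.55 (SE 0.169, adjusted p = 0.372 by edgeR with Benjamini–Hochberg adjustment).

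The genes whose pattern over the 7 libraries was most like that of Sorl1 were found by Pearson's r of log2 CPM among all genes tested, as a description. The highest were Spats2 (r = 0.991), Gm11261 (0.986), Chit1 (0.980), Phospho1 (0.980) and Zw10 (0.975). The lowest were Clec11a (r = -0.995), Pttg1ip (-0.992), Arhgef15 (-0.992), Acss3 (-0.987) and Mgll (-0.986). All 10 had genotypes that did not overlap, which a high r over these libraries nearly requires. Their log2 fold changes were smaller in size than that of Sorl1, with means of, for example, 61.6 CPM in WT and 65.4 CPM in KO for Spats2 and 3.93 and 2.40 CPM for Acss3, an acyl-CoA synthetase gene. Mgll, encoding monoacylglycerol lipase, was at 54.4 ± 2.27 CPM in WT (SD, n = 4) and 45.2 ± 0.897 CPM in KO (SD, n = 3).

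With the genotype means taken out, the deviations of Sorl1 over the 7 libraries were most like those of Erbb3 (r = 0.991), Zfp444 (0.991) and Syngr1 (0.987). Erbb3, a neuregulin receptor gene, was at 1.23, 1.59, 1.93 and 2.28 CPM in WT and 2.03, 1.71 and 1.81 CPM in KO. It thus had the order of Sorl1 within each genotype but overlapped between them. Among the receptors themselves, r with Sorl1 over the 7 libraries was 0.369 for Sort1, 0.397 for Sorcs3, -0.512 for Sorcs1 and -0.680 for Sorcs2. These values share the same 7 libraries and the same scaling, and were picked from or set beside 19233 genes.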

How the data were processed

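Per the labels, stranded mRNA libraries of ovarian stroma were sequenced as paired 100 base reads and quantified with Salmon against GENCODE M26 (GRCm39). The authors deposited, for each transcript and library, Salmon's estimated counts, TPM scaled by length and library total, and effective lengths. DESeq2 was the authors' test.

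Transcripts were assigned to genes by GENCODE M39 (137570 of 139225 matched, 99.37% to 99.4% of reads), and estimated counts were summed per gene and rounded. WT and KO were compared with edgeR 4.0.16 in R 4.3.3 (TMM, filterByExpr, glmQLFit with legacy=TRUE, two-sided quasi-likelihood test), with Benjamini–Hochberg adjustment over 19233 genes. The common biological coefficient of variation was 0.127, so that the spread between pools, more than counting error, limited precision except at the lowest counts. SE is the size of the log2 fold change over the square root of F. CPM used TMM factors, and log2 CPM a prior count of 2. The code was tested on simulated data.

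The members and lists were chosen with earlier results of these data known. Genes were named by a rule: the receptors, Pgr, list genes with an unadjusted p under 0.05 (at most 4 per list) and the 2 most abundant per list, the 3 nearest tested genes on each side of Sorl1 and any within 2 Mb under that p, and the genes with the highest and lowest r to Sorl1. One gene that the rule names is not reported here. Alternatives were DESeq2 1.42.0, limma-voom (limma 3.58.1), legacy=FALSE, median-of-ratios size factors, a filter of at least 10 counts in each of the libraries or none, offsets for transcript length, a replicate block, other windows and leaving out each library. Same-numbered WT and KO libraries came from different mice. Motifs and sequences were read from the GRCm39 genome, and proteins were not used here.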

Additional observations from a re-analysis of the deposited data

Results flagged for a closer look

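Among 23 sets of 4 WT values checked for a single library far from the others, 2 stood out by Dixon's 95% limit for 4 samples, and chance flags about 1 in 20 groups. Both were genes next to each other upstream of Sorl1, and in both it was WT replicate 4. Sc5d was at 537 CPM in WT replicate 4, with a gap of 0.934 of the group's range to the nearest other library. Gm36435 was at 0.563 CPM in WT replicate 4, with a gap of 0.896 of the range. Sorl1 itself was highest among the WT libraries in WT replicate 4, at 26.6 CPM, and its log2 fold change over all leave-one-out fits was at least 0.999.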

How the results depend on the processing

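Of 391 alternatives tried over 29 results, 366 kept the direction and side of the threshold, or a close value. The log2 fold change of Sorl1 lay between 0.999 and 1.138 with 1 library left out and between 0.994 and 1.063 under the other settings. With 1 library left out, that of Sort1 ranged from -0.049 to 0.254, turning below 0 without KO replicate 4. The ranges were -1.287 to -0.062 for Sorcs1, -0.334 to -0.136 for Sorcs2 and 0.065 to 0.225 for Sorcs3, and no adjusted p of these 4 was below 0.388 under any alternative. Sorcs2 had an unadjusted p under 0.05 by edgeR with no filter, without WT replicate 2 and without WT replicate 4. Sorcs1 had one without KO replicate 4. Mir100hg ranged from -0.160 (without KO replicate 2) to 0.432, Gm35835 from -0.182 to 0.053 (without KO replicate 4) and Sc5d from -0.183 to 0.179 (without WT replicate 4, the library that stood apart).

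The count of partner genes with an unadjusted p under 0.05 was 7, between 2 (without KO replicate 2) and 15 (without KO replicate 4) with 1 library left out, and 10 with no filter. The count near Sorl1 was 5, between 5 and 8 (without WT replicate 4) with 1 library left out, 2 within 1 Mb and 18 within 5 Mb. It was 4 of 29 genes with at least 10 counts in every library, a filter that 4930546K05Rik does not pass. The cause of these moves was not tested, other than the number of genes in each window. With the replicate number as a block, 17 of 95 partner genes and 7 of 35 neighbours had an unadjusted p under 0.05 by edgeR. The log2 fold changes of the receptors kept their direction. For these alternatives the share of all genes under that p is not given, so nothing about the lists is read from the counts. The numbers were not taken to pair the libraries. Deviations of same-numbered libraries correlated at -0.013, 0.106 and 0.085 for replicates 2, 3 and 4, and KO replicates 3 and 4 matched their own number best while KO replicate 2 matched WT replicate 4. In estimated counts in place of TPM, Sorl1-201 held 99.6% of Sorl1 in WT and 99.7% in KO, against 93.1% (91.3 to 95.3 with 1 library left out) and 95.2% (93.9 to 95.9) by TPM. The Sorl1 share of the family was 22.0% and 39.0% in CPM, against 14.2% (13.7 to 15.1) and 26.9% (25.7 to 28.2) in TPM. An adjusted p of at most 0.05 was reached by Pgr under 6 alternatives, 4930546K05Rik under 2 and Plau, Hspa8 and Thy1 under DESeq2 alone. At the depth of Sorcs3 and 4930546K05Rik, small differences are not detectable.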
